A study of Homo sapiens with 6 samples.

Results

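The ATP-binding cassette (ABC) transporter genes were followed in UM-SCC1, a human cell line of head and neck squamous cell carcinoma (HNSCC), after transfection with mimics of miR-204-5p or with control mimics. Mimics are synthetic RNA duplexes that stand in for a mature miRNA inside the cell, and the control mimics were given in parallel. RNA-seq was performed 48 h after transfection on 3 independent experiments per group, so 6 libraries entered the comparison, which asks how raised miR-204-5p alters the transcripts of these cells. Both groups were the same single cell line, transiently transfected, and no other treatment or genetic change was listed. Members were all genes of the deposited table with a symbol made of ABC, a subfamily letter from A to G and a number, and CFTR (ABCC7) was searched for as well. The rule found 38 of 14959 rows with 37 different symbols, because ABCF2 stands on 2 rows, and CFTR was not among the rows analysed here. A mean of at least 1 FPKM (fragments per kilobase of transcript and per 1e6 mapped fragments) over the 6 libraries was reached by 27 of the 38 rows, and 11 rows lay below it.

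ABC proteins share a nucleotide-binding domain that hydrolyses ATP. In the subfamilies ABCA, ABCB, ABCC, ABCD and ABCG that domain is joined to membrane-spanning segments, and the energy drives lipids, sterols, bile salts, peptides, haem precursors, nucleotides, conjugated metabolites or drugs across a membrane. Several of them, above all ABCB1, ABCC1 and ABCG2, are known for carrying anticancer drugs out of tumour cells. The members of ABCE and ABCF have no membrane-spanning segment and work at the ribosome, in initiation, quality control and recycling. A miRNA guides Argonaute proteins to an mRNA mainly through its seed, the bases 2 to 8 of its 5′ end, which pair with matching sites that lie most often in the 3′ untranslated region (3′UTR). The mature sequence of miR-204-5p (RefSeq, GRCh38.p14, chr9:70810031-70810052, minus strand) is shown because the sites described further on pair with its seed, here in capitals.
hsa-miR-204-5p: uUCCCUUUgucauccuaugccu

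The table gives FPKM and no counts, and the depth inferred from the smallest steps of the values ran from 13.1 to 16.4 M (1e6) fragments, with overlapping groups. A single fragment on 1 kb of transcript was therefore worth 0.0610 to 0.0765 FPKM. Spearman correlations of FPKM across genes were 0.990 to 0.991 within groups and 0.973 to 0.976 between groups. All 7 listed markers of squamous epithelial cells had a mean of at least 1 FPKM in both groups, among them TP63 at 27.4 ± 3.19 FPKM with miR-204-5p mimics and 55.9 ± 1.48 FPKM with control mimics (SD, n = 3). PTPRC, CD3E, PECAM1, CDH5 and VWF, which mark leukocytes and endothelial cells, had group means below 0.5 FPKM. CD68, also on the leukocyte list, was at 9.60 ± 0.917 and 10.8 ± 0.777 FPKM, and COL1A1, the only fibroblast marker of 3 found, was at 9.46 ± 0.919 and 8.37 ± 0.428 FPKM. Of these leukocyte, endothelial and fibroblast markers only VWF passed an adjusted p of 0.05 (limma adjusted p = 0.0234, higher by 0.17 on the log2 scale). Of the 7 squamous epithelial markers 6 passed, 5 lower and 1 higher, against 47.8% of genes with a mean of at least 1 FPKM. TP63 was among the lower ones (log2 fold change −1.01, limma adjusted p = 0.000276). The part of all these markers in the values of the ABC genes was not tested. FPKM is a value per length of transcript, and 6 of the 38 rows list a transcript of at most 20.5% of the length of the longest one of their gene, so levels were compared between genes only with that limit. The mature miRNA is not among the rows, so the level that the mimics reached is not shown by these values.

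ABC transporter genes changed in both directions. Among rows past a limma adjusted p of 0.05, the largest decreases on the log2(FPKM + 1) scale were those of ABCF1, ABCA12 and ABCC2. The largest increases were those of ABCG1, ABCE1, ABCA1, ABCC3 and ABCG2. Of the 38 rows, tested with limma on log2(FPKM + 1), 16 passed an adjusted p of 0.05, and 7 of these were lower and 9 higher in cells given the miR-204-5p mimics. That is 42.1% of the rows, and 40.8% of all 14959 genes passed the same threshold, 16.8% lower and 23.9% higher. Among the 27 rows with a mean of at least 1 FPKM, 15 passed (55.6%), 7 lower and 8 higher, against 47.8% of the 11504 genes at that level, 20.1% lower and 27.7% higher. The balance of directions depended on the scaling: it was 7 lower and 8 higher ABC rows with equal sums or equal medians, and 8 lower and 7 higher with quantile normalization, under which 3026 genes of the table were lower and 3043 higher in place of 2520 and 3578. The share of ABC rows called was thus near that of the table as a whole. Groups without overlap were seen for 21 of the 38 rows, 9 below and 12 above the control mimics, and for 53.6% of all genes. At 1 FPKM and above they were seen for 18 of 27 rows and for 60.3% of genes. The median log2 fold change was 0.01 over the 38 rows and 0.03 over all genes, so the family had no common direction. Among rows of at least 1 FPKM, the median size of the log2 fold change was 0.35, and it was 0.22 over all genes of that level. Calls in both directions occurred within ABCA, ABCB and ABCC, whereas the 2 calls of ABCF were lower and the calls of ABCD, ABCE and ABCG were higher. Whether subfamilies differ was not tested.

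**Figure D1:**
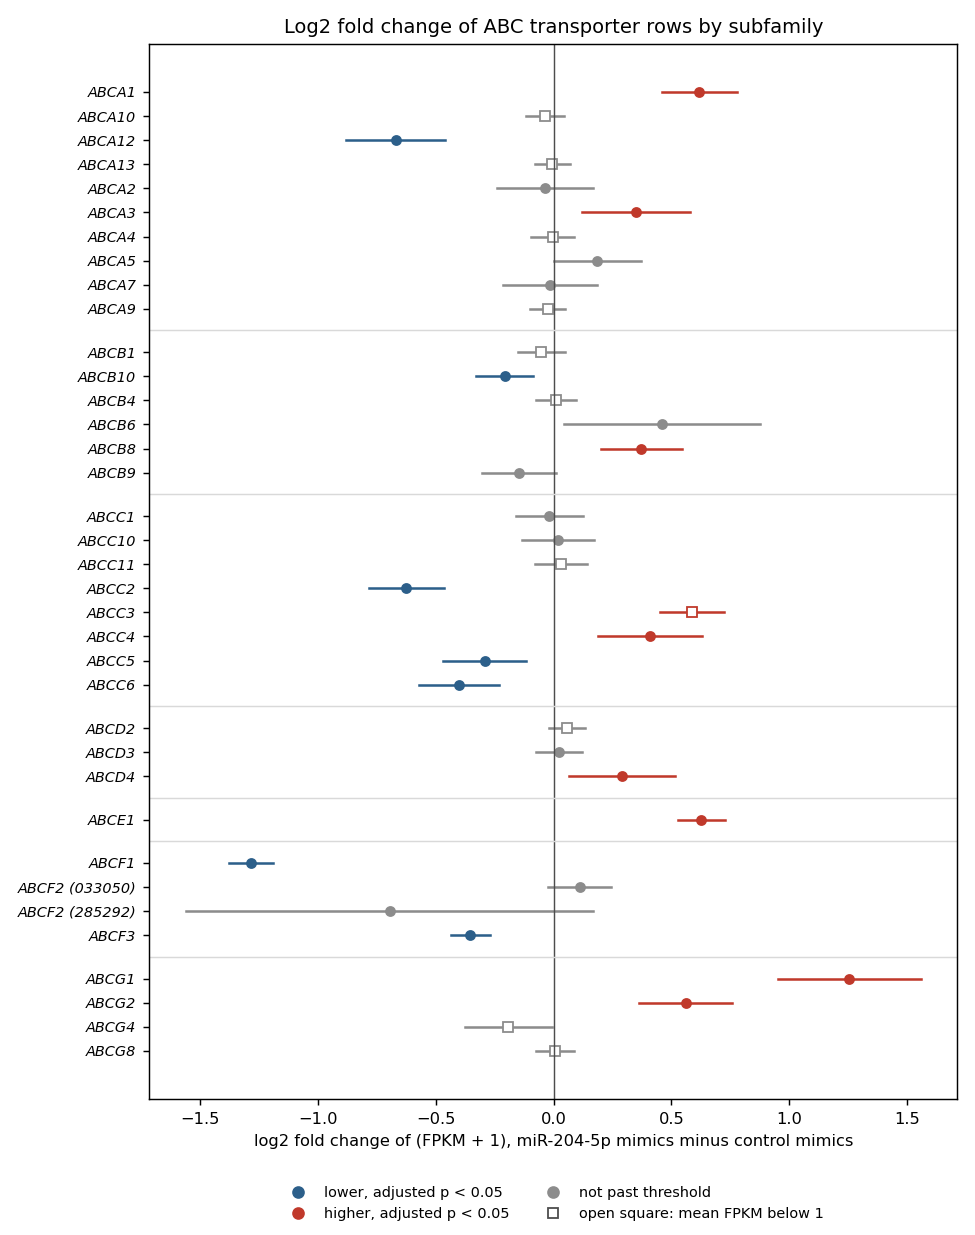
Log2 fold change of (FPKM + 1), miR-204-5p mimics minus control mimics, for 36 of the 38 ABC rows (points) with its 95% confidence interval from limma (lines), grouped by subfamily from ABCA to ABCG. ABCF1 at −1.29 and ABCG1 at 1.26 lie farthest from 0, and most rows below 1 FPKM (open squares) lie within 0.06 of 0.

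All log2 fold changes below are differences of log2(FPKM + 1), miR-204-5p mimics minus control mimics, a scale that understates the change of genes with few FPKM. Each p-value is from limma with Benjamini-Hochberg adjustment across the 14959 genes of the table.

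ABCF1 had the largest decrease of the ABC genes past the threshold. Its protein binds the initiation factor eIF2 and ribosomes and is known to promote the start of translation. The gene (ENSG00000204574) is listed on the plus strand at chr6:30571376-30591532 (GRCh38). ABCF1 measured 10.5, 10.3 and 10.9 FPKM with miR-204-5p mimics and 26.9, 27.4 and 27.4 FPKM with control mimics. Each library with miR-204-5p mimics was far below each control library, and the spread within a group was under 1 FPKM. The means were 10.6 ± 0.298 and 27.2 ± 0.258 FPKM (SD, n = 3), a ratio of 0.388, with a log2 fold change of −1.29 (standard error 0.0394, adjusted p = 1.78e-05). Among the 11504 genes with a mean of at least 1 FPKM, this was the log2 fold change of rank 39 from the lowest. The 3′UTR of ABCF1 (831 bases) has neither a match of 7 or 8 bases nor the 6-base match AAGGGA to the seed. After the values had been seen, coding sequences were searched too. The coding sequence of the listed transcript of ABCF1 (ENST00000326195, 2538 bases with the stop codon, GENCODE 29) holds 3 matches of 8 bases (8mers, AAAGGGAA) and a match of 7 bases that ends opposite the first base of the miRNA (7mer-A1, AAGGGAA). They begin at the bases 88, 528, 550 and 647 of the coding sequence, in exons 2, 7, 7 and 8 of 25, at chr6:30577423-30577430, chr6:30579969-30579976, chr6:30579991-30579998 and chr6:30580488-30580494. The sites are shown on the plus strand in their surroundings, with the match in capitals, because ABCF1 is the ABC gene with the largest decrease.
ABCF1 exon 2: aagtggtgaagAAAGGGAAgaaggacaaga
ABCF1 exon 7, first: ctcaagggcaaAAAGGGAAaggaagagaag
ABCF1 exon 7, second: aagagaagtcaAAAGGGAAggctaagcctc
ABCF1 exon 8: gcctcccaaacAAGGGAAggagaaggcca

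At least 3 8mers in the coding sequence, the number in ABCF1 and a limit taken after it had been seen, were found in 25 of 14664 genes (0.170%). Of these 25 genes, with ABCF1 among them, 11 were lower, 1 was higher and 13 did not pass the threshold. A match is a description of letters in the sequence, and whether these sites are bound was not tested.

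The other ribosome-associated members moved less. ABCF3, whose yeast counterpart GCN20 binds GCN1, an activator of the kinase GCN2, measured 22.8, 22.4 and 22.9 FPKM with miR-204-5p mimics and 29.6, 28.7 and 29.5 FPKM with control mimics. It was lower in every library with the mimics, at means of 22.7 ± 0.267 and 29.3 ± 0.5003 FPKM (SD, n = 3; log2 fold change −0.35, standard error 0.0348, adjusted p = 0.000529). ABCF2 did not pass the threshold on its main row (ENSG00000033050), with 12.5, 13.98 and 12.4 FPKM against 12.2, 11.8 and 11.9 FPKM (log2 fold change 0.11, adjusted p = 0.163). The second row with this symbol (ENSG00000285292) is called AC021097.2 in GENCODE 29, and its transcript shares 1914 exonic bases, 87.6% of its exons, with ABCF2. That row had 0.158, 0.472 and 1.89 FPKM against 2.77, 1.48 and 1.24 FPKM, a log2 fold change of −0.70 that did not pass (adjusted p = 0.173) except without miR-204-5p mimics replicate 3 (−1.08, adjusted p = 0.0227). Reads of these loci cannot be assigned to either with certainty, and the sum of both rows was 13.8 ± 0.975 FPKM with miR-204-5p mimics and 13.8 ± 1.01 FPKM with control mimics (SD, n = 3).

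ABCE1, which splits the ribosome into its subunits after termination, was higher. It measured 25.4, 26.3 and 26.8 FPKM with miR-204-5p mimics and 16.1, 16.6 and 17.0 FPKM with control mimics. Every library with the mimics was above every control library. The means were 26.1 ± 0.675 and 16.6 ± 0.490 FPKM (SD, n = 3), a ratio of 1.58 (log2 fold change 0.63, standard error 0.0415, adjusted p = 0.000139). OTUD4 on the opposite strand shares 276 exonic bases with ABCE1, 4.41% of its exons, and OTUD4 itself was at 11.6 against 5.45 FPKM (log2 fold change 0.96, adjusted p = 7.36e-05). Also on the opposite strand, ANAPC10 shares 469 bases (7.49%) and did not pass (log2 fold change 0.16, adjusted p = 0.199), and AC098588.1, not in the table, shares 243 bases. Strand use in the counting is not given in the sources used here, so the part of such reads in the ABCE1 value was not tested.

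**Figure D2:**
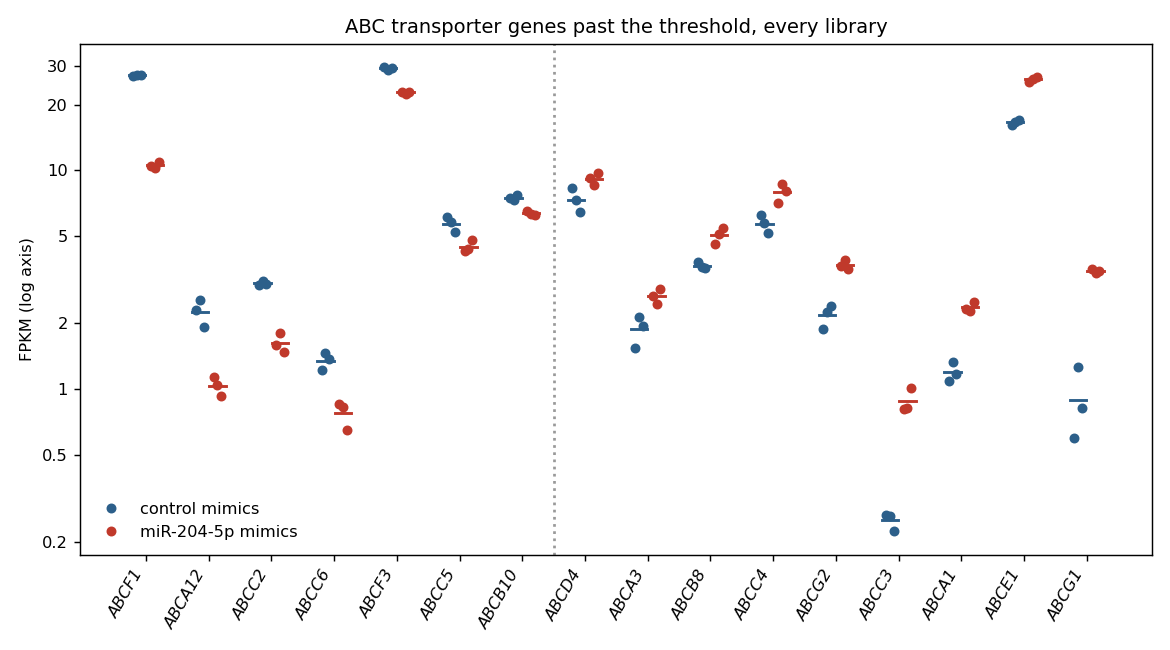
FPKM on a log axis in each of the 6 libraries for the 16 ABC genes past the threshold, from the lowest to the highest log2 fold change. Points are libraries, horizontal strokes are group means and the dotted line parts the 7 lower from the 9 higher genes. None of the 16 has overlapping groups.

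The cholesterol exporters ABCG1 and ABCA1 were both higher with miR-204-5p mimics. ABCA1 passes cholesterol and phospholipid to lipid-poor apolipoproteins and ABCG1 passes cholesterol to mature lipoprotein particles, and both genes are classical targets of the liver X receptors. ABCG1 measured 3.53, 3.41 and 3.49 FPKM with miR-204-5p mimics and 0.598, 1.27 and 0.821 FPKM with control mimics. The libraries with the mimics lay close together, while the control libraries varied more, and the groups did not overlap. The means were 3.48 ± 0.0615 and 0.896 ± 0.342 FPKM (SD, n = 3), a 3.88-fold difference with a log2 fold change of 1.26 (standard error 0.127, adjusted p = 0.000578), which was rank 46 from the highest among 11504 genes. ABCA1 measured 2.33, 2.28 and 2.51 FPKM against 1.09, 1.34 and 1.18 FPKM. Its means were 2.37 ± 0.121 and 1.20 ± 0.125 FPKM, a 1.98-fold difference (log2 fold change 0.62, standard error 0.0664, adjusted p = 0.000728). Because both are low in FPKM, the pseudocount mattered for the size: with 0.1 in place of 1 the log2 fold changes were 1.90 for ABCG1 and 0.93 for ABCA1.

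ABCG2, the breast cancer resistance protein that exports drugs and urate, was higher too. It measured 3.65, 3.88 and 3.54 FPKM with miR-204-5p mimics and 1.88, 2.27 and 2.42 FPKM with control mimics, again without overlap. The means were 3.69 ± 0.174 and 2.19 ± 0.278 FPKM (SD, n = 3; log2 fold change 0.56, standard error 0.0820, adjusted p = 0.00242). The remaining ABCG genes were below 1 FPKM. ABCG4 had means of 0.196 and 0.367 FPKM and passed only without control mimics replicate 1 (log2 fold change −0.19 with all libraries, adjusted p = 0.0907; adjusted p = 0.0343 without that library).

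In the rest of ABCA, ABCA12 was lower and ABCA3 higher. ABCA12 loads lipids into the lamellar granules of keratinocytes and is needed for the skin barrier. It measured 1.14, 1.05 and 0.928 FPKM with miR-204-5p mimics and 2.29, 2.55 and 1.92 FPKM with control mimics. The means of 1.04 ± 0.108 and 2.26 ± 0.317 FPKM (SD, n = 3) gave a ratio of 0.461, a log2 fold change of −0.67 (standard error 0.0881, adjusted p = 0.00156), or −1.04 with a pseudocount of 0.1. In the same libraries 5 of the 7 squamous epithelial markers passed as lower, against 20.1% of genes with a mean of at least 1 FPKM. KRT6A was higher. The markers were chosen with earlier results of these data known, and whether ABCA12 moved with them was not tested. ABCA3, known for phospholipid transport into lung lamellar bodies, measured 2.67, 2.44 and 2.86 FPKM against 1.54, 2.15 and 1.95 FPKM. Its log2 fold change of 0.35 (adjusted p = 0.0271) lost the call without miR-204-5p mimics replicate 1 or 3, without control mimics replicate 1 or 3, with quantile normalization and with the replicate number as a block (adjusted p from 0.0550 to 0.0799). ABCA2, the ABCA gene with the highest mean FPKM, is a sterol and lipid transporter of late endosomes. It had 15.5 ± 1.42 and 16.0 ± 1.35 FPKM, with a log2 fold change of −0.04 (95% confidence interval −0.24 to 0.17, adjusted p = 0.759). ABCA5 had 1.62, 1.82 and 2.10 FPKM against 1.42, 1.52 and 1.55 FPKM, and passed only without miR-204-5p mimics replicate 1 (log2 fold change 0.19, adjusted p = 0.0995; adjusted p = 0.0498 without that library). ABCA7 was at 7.67 ± 0.383 and 7.80 ± 0.839 FPKM (adjusted p = 0.892), and its row lists a transcript of only 343 bases.

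The transcripts of 2 multidrug resistance proteins, ABCC2 and ABCC3, moved in opposite directions. ABCC2 (MRP2), the apical exporter of glutathione and glucuronide conjugates, measured 1.59, 1.80 and 1.49 FPKM with miR-204-5p mimics and 2.99, 3.13 and 3.03 FPKM with control mimics. Each library with the mimics was below each control library. The means were 1.63 ± 0.160 and 3.05 ± 0.0720 FPKM (SD, n = 3), a ratio of 0.533 (log2 fold change −0.63, standard error 0.0662, adjusted p = 0.000687). ABCC3 (MRP3), which carries similar conjugates through the basolateral membrane, was higher: 0.810, 0.826 and 1.02 FPKM with miR-204-5p mimics against 0.268, 0.264 and 0.225 FPKM with control mimics. The 3.51-fold difference of means was the only call among the 11 rows below 1 FPKM (log2 fold change 0.59, standard error 0.0566, adjusted p = 0.000484; log2 fold change 1.48 with a pseudocount of 0.1). The row of ABCC3 lists a transcript of 656 bases, 11.5% of the longest one of the gene.

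ABCC4 and ABCC5, exporters of cyclic nucleotides and nucleotide analogues, differed in direction as well. ABCC4 measured 7.09, 8.69 and 8.02 FPKM with miR-204-5p mimics and 6.26, 5.75 and 5.16 FPKM with control mimics (log2 fold change 0.41, standard error 0.0924, adjusted p = 0.0131). ABCC5 measured 4.29, 4.36 and 4.79 FPKM against 6.10, 5.82 and 5.24 FPKM (log2 fold change −0.29, standard error 0.0731, adjusted p = 0.0192). Neither gene had overlapping groups. The call of ABCC5 was lost without miR-204-5p mimics replicate 1 or 2, without control mimics replicate 1 or 2 and with the replicate block (adjusted p from 0.0580 to 0.0633). ABCC6, which drives ATP release and so keeps soft tissue free of mineral, was lower at 0.860, 0.829 and 0.653 FPKM against 1.22, 1.47 and 1.37 FPKM (log2 fold change −0.40, adjusted p = 0.00503, or −0.73 with a pseudocount of 0.1). Near-identical pseudogene copies of ABCC6 exist, so its reads are uncertain. ABCC1 (MRP1), the ABCC gene with the highest mean FPKM, is a known drug exporter. It did not pass at 18.3 ± 1.19 and 18.5 ± 0.811 FPKM (log2 fold change −0.02, 95% confidence interval −0.16 to 0.13, adjusted p = 0.841). ABCC10, at 5.85 and 5.76 FPKM, did not pass either (adjusted p = 0.851).

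Among the ABCB genes, those of the mitochondrial inner membrane carried both calls. ABCB8, which supports iron export and the mitochondrial potassium channel, measured 4.61, 5.12 and 5.45 FPKM with miR-204-5p mimics and 3.83, 3.60 and 3.59 FPKM with control mimics (log2 fold change 0.37, standard error 0.0712, adjusted p = 0.00694). ABCB10, which takes part in haem synthesis and biliverdin export, measured 6.53, 6.31 and 6.24 FPKM against 7.45, 7.30 and 7.76 FPKM (log2 fold change −0.21, standard error 0.0508, adjusted p = 0.0179). Both were without overlap, but ABCB10 lost the call without miR-204-5p mimics replicate 2, without control mimics replicate 3 and with the replicate block (adjusted p from 0.0535 to 0.0635). ABCB6, a porphyrin transporter, had the largest positive log2 fold change among rows that did not pass (0.46, adjusted p = 0.0754). ABCB6 measured 9.62, 6.53 and 9.24 FPKM against 4.57, 6.37 and 6.64 FPKM, overlapped in 1 library of each group, and passed without miR-204-5p mimics replicate 2 (adjusted p = 0.0299). A same-strand gene, AC068946.2, shares 54.7% of the exonic bases of ABCB6 and was at 1.08 and 2.05 FPKM, so the reads cannot be parted with certainty. ABCB9, a lysosomal peptide transporter, had 3.51 ± 0.252 and 3.998 ± 0.130 FPKM without overlap and passed only with quantile normalization (log2 fold change −0.15, adjusted p = 0.120; adjusted p = 0.0292 with that scaling).

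The ABCD genes, which bring very long chain fatty acids into peroxisomes or, for ABCD4, cobalamin out of lysosomes, gave 1 call. ABCD4 measured 9.26, 8.56 and 9.74 FPKM with miR-204-5p mimics and 8.34, 7.30 and 6.44 FPKM with control mimics, the least separated of the 16 calls (log2 fold change 0.29, standard error 0.0941, adjusted p = 0.0487). It lost the call under 9 of 13 alternatives (adjusted p from 0.0646 to 0.131), among them each library left out except control mimics replicate 1, all 3 scalings and the replicate block. ABCD3 was at 16.6 ± 0.237 and 16.3 ± 0.440 FPKM (95% confidence interval of the log2 fold change −0.07 to 0.12, adjusted p = 0.685).

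The other 10 rows below 1 FPKM did not pass, with a mean over all libraries of 0.0146 to 0.282 FPKM and log2 fold changes from −0.19 to 0.06. The drug efflux pump ABCB1 (P-glycoprotein) belongs to them: it is listed at 0 in all 3 libraries given miR-204-5p mimics and at 0.0863, 0 and 0.0247 FPKM with control mimics. ABCD2 is listed at 0.0222, 0.0494 and 0.0514 FPKM with miR-204-5p mimics and at 0 in the 3 control libraries. ABCB4 is listed at 0 in 1 library and ABCG8 in 2 libraries. For these 4 genes the values stand for a few fragments, and a difference between groups was not detectable at this depth.

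Added over the members of a subfamily, the FPKM of ABCF was lower with the mimics and that of ABCE1 and ABCG higher, as a description with no test. The 4 ABCF rows summed to 46.1, 47.2 and 48.1 FPKM with miR-204-5p mimics and to 71.5, 69.4 and 70.0 FPKM with control mimics, a ratio of means of 0.670. Most of this difference came from ABCF1, with means of 10.6 and 27.2 FPKM. ABCF3 had means of 22.7 and 29.3 FPKM, and the 2 rows of ABCF2 together had 13.8 FPKM in both groups. The 4 ABCG rows summed to 7.39, 7.43 and 7.32 FPKM against 2.75, 3.95 and 3.69 FPKM, 2.13-fold more with the mimics. Here ABCG1 had means of 3.48 and 0.896 FPKM, ABCG2 of 3.69 and 2.19 FPKM, and ABCG4 and ABCG8 were below 1 FPKM. Sums of ABCD were 28.5 ± 0.423 and 26.0 ± 0.747 FPKM (SD, n = 3), and those of ABCA, ABCB and ABCC overlapped between groups. All 38 rows together came to 222 ± 6.48 and 225 ± 1.92 FPKM, and these totals overlapped between groups. The difference of the totals was −3.11 FPKM as deposited and −9.16 to −10.1 FPKM after scaling to equal sums, equal medians or by quantiles, while that of ABCD went from 2.48 to 1.64 FPKM with equal sums and 1.62 FPKM with equal medians.

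**Figure D3:**
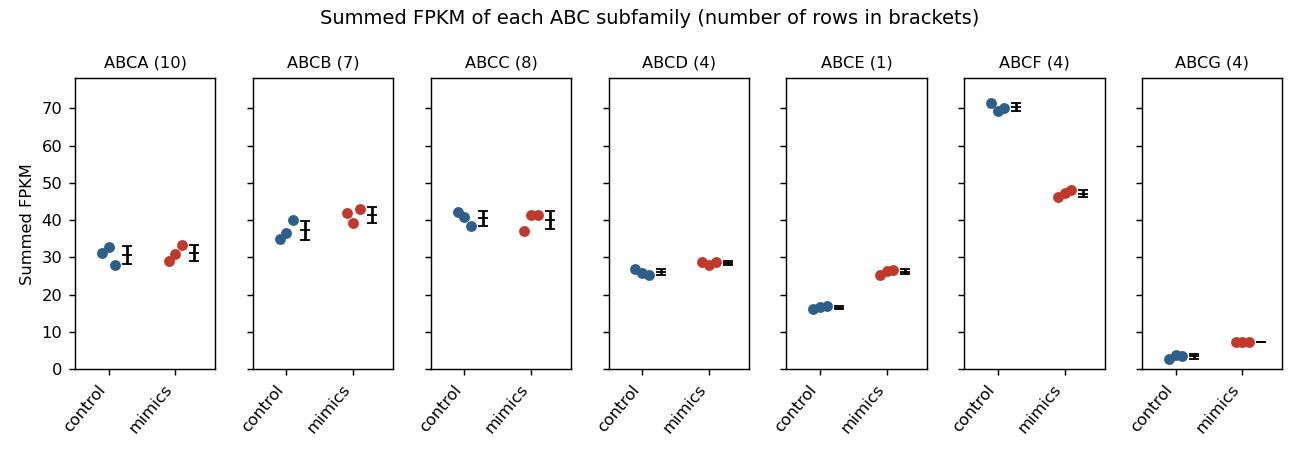
Summed FPKM of the rows of each subfamily in every library (points), with the mean and SD of each group of 3 as black marks. ABCF drops from about 70.3 to 47.1 FPKM and ABCE and ABCG are higher with miR-204-5p mimics, while ABCA, ABCB and ABCC overlap between groups.

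Genes that work with ABC proteins were looked up from a list of 24 partners, of which 22 were found. This list and that of the transcription factors further below were written with earlier results of these data known. Their shares and medians are therefore a description, and no test of the lists was run. Of these, 14 passed the threshold, 4 lower and 10 higher (63.6%, against 40.8% of all genes), with a median log2 fold change of 0.25 beside 0.03 over all genes. Of the 20 partners with a mean of at least 1 FPKM, 13 passed (65%, against 47.8% of genes at that level). Without miR-204-5p mimics replicate 1, 9 partners passed in place of 14, and 2 were lower in place of 4 without miR-204-5p mimics replicate 1 or 3. The lower ones included EZR (ezrin), which ties apical transporters such as ABCC2 to the actin cortex. It was at 46.8, 45.9 and 45.6 FPKM with miR-204-5p mimics and 82.3, 83.7 and 81.9 FPKM with control mimics (log2 fold change −0.83, adjusted p = 3.09e-05). Its relative RDX (radixin), which anchors ABCC2 in liver, was higher at 18.8, 18.5 and 15.3 FPKM against 12.5, 11.5 and 13.5 FPKM (log2 fold change 0.45, adjusted p = 0.00856). NHERF1 (SLC9A3R1), the scaffold between transporters and ezrin, was lower (log2 fold change −0.25, adjusted p = 0.0324), and this call was lost without any 1 of the miR-204-5p mimics libraries (adjusted p from 0.0748 to 0.0854) and with the replicate block.

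Of the 3 listed peroxisome import factors for ABCD proteins, 1 was lower and 2 were higher. PEX19, the soluble receptor that delivers them, was lower, with 16.9 ± 0.941 and 21.9 ± 0.446 FPKM (SD, n = 3; log2 fold change −0.35, adjusted p = 0.00207). PEX16, which helps to dock PEX19, was higher with 13.1 ± 1.25 and 9.90 ± 1.43 FPKM (log2 fold change 0.38, adjusted p = 0.0338), a call lost without miR-204-5p mimics replicate 1 or 2, without control mimics replicate 1 or 3 and with the replicate block (adjusted p from 0.0717 to 0.0988). PEX3, the membrane anchor for PEX19, named after its values had been seen, was higher as well, with 10.2 ± 0.336 and 7.82 ± 0.960 FPKM (log2 fold change 0.34, adjusted p = 0.0181), and lost the call without miR-204-5p mimics replicate 1 (adjusted p = 0.0583) or control mimics replicate 3 (adjusted p = 0.0518). KCNJ11 is the pore of the potassium channel that pairs with ABCC8, a gene not among the ABC rows analysed here. KCNJ11 was low and higher with the mimics, at 0.723, 0.957 and 0.969 FPKM against 0.232, 0.541 and 0.133 FPKM (log2 fold change 0.54, adjusted p = 0.0127).

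Of 14 transcription factors known to regulate ABC genes, 10 were found and 2 passed (20%, against 40.8% of all genes), both lower. RXRA, the partner of the liver X receptors, was at 40.5, 40.0 and 47.6 FPKM with miR-204-5p mimics and 62.4, 57.8 and 58.4 FPKM with control mimics (log2 fold change −0.47, adjusted p = 0.00310). PPARD was at 10.02 ± 0.712 and 12.5 ± 1.08 FPKM (log2 fold change −0.30, adjusted p = 0.0223), and its call was lost without miR-204-5p mimics replicate 2 or 3 or control mimics replicate 1 or 2 (adjusted p from 0.0558 to 0.0720). The liver X receptors themselves, which control ABCA1 and ABCG1, did not pass: NR1H2 had 29.6 ± 0.822 and 27.3 ± 0.915 FPKM (adjusted p = 0.0724) and NR1H3 had 6.79 ± 0.448 and 7.08 ± 0.364 FPKM (adjusted p = 0.555).

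**Figure D4:**
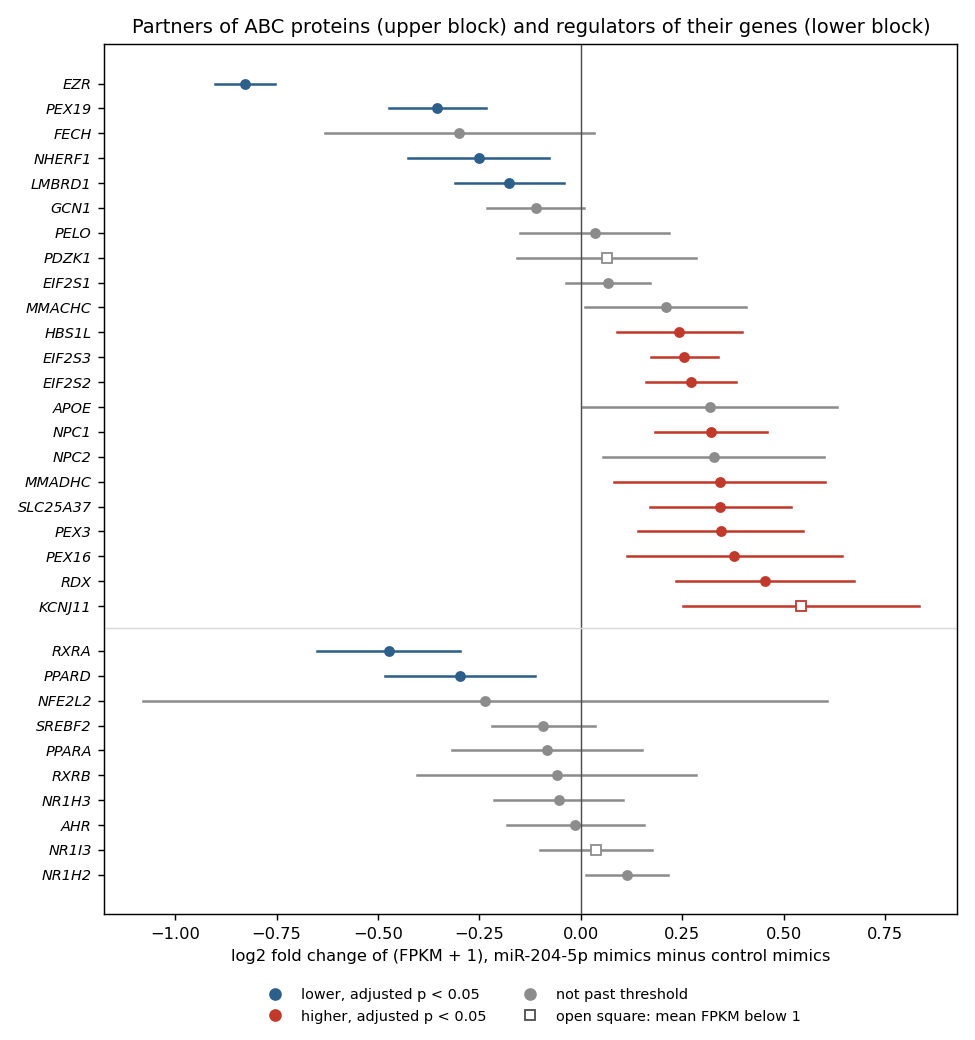
Log2 fold change of (FPKM + 1), miR-204-5p mimics minus control mimics, with 95% confidence intervals from limma for 22 partner genes (upper block) and 10 regulator genes (lower block), sorted within blocks. EZR at −0.83 is farthest from 0, and RXRA and PPARD are the regulators past the threshold.

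A minority of ABC genes, as of all genes, carried a seed match in the 3′UTR. In the longest annotated 3′UTR of GENCODE 29, 7 of 38 rows (18.4%) held a match of 7 or 8 bases on the transcript strand. Of the 14664 genes with a 3′UTR, 27.1% did. These 3′UTRs had a median of 1072 bases over the ABC rows and 1251.5 bases over all genes. The part of length in the difference of shares was not tested. None of the 7 was an 8mer. ABCB6 and ABCG8 held a 7mer-m8 (AAAGGGA), and ABCA13, ABCB10, ABCC10, ABCD2 and ABCD4 held a 7mer-A1. Of the 7 lower ABC genes, ABCB10 alone carried such a match, and of the 9 higher genes ABCD4 did. Over all genes with a 3′UTR, 27.0% of those with such a match were lower and 16.4% were higher. Without a match these shares were 13.5% and 27.2%. Whether match and direction go together among the ABC genes was not tested. With all 3′UTRs of a gene joined, 9 rows (23.7%) had a match, ABCC3 and ABCC6 being added, against 29.2% of genes. The sites of ABCB10, ABCD4, ABCC3 and ABCC6, and those of ABCB6, which has 3, are shown in transcript orientation (minus strand, but plus for ABCC3), with the matching bases in capitals, because the first 4 genes passed the threshold. They lie in the last exon at chr1:229517643-229517649 (ABCB10), chr14:74285908-74285914 (ABCD4), chr17:50635652-50635658 (ABCC3, in the transcript listed for it), chr16:16221535-16221541 (ABCC6, in a transcript of 2 exons that is not the listed one) and, in ABCB6, chr2:219209893-219209899, chr2:219209822-219209828 and chr2:219209817-219209823, of which the last pair overlaps by 2 bases.
ABCB10: cagctggaaagAAGGGAAcatttatattg
ABCD4: agcttggtgggAAGGGAAgcacactctgc
ABCC3: cacagatggagAAAGGGAggcccagagag
ABCC6: tcggggtgtagAAGGGAAtctgttaatca
ABCB6, first: gactaacccagAAGGGAAtaagatgtgtc
ABCB6, second: ctagctatggtAAGGGAAagggacctttc
ABCB6, last: tatggtaagggAAAGGGAcctttccgaaa

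In coding sequences the share was higher, 15 of 38 rows (39.5%) against 23.0% of genes. The coding sequences of the ABC genes were also longer, with a median of 3852 bases beside 1401 bases over all genes, and the part of length in this difference was not tested. Among the ABC rows with a match in the coding sequence, ABCF1, ABCA12, ABCC5 and ABCC6 were lower and ABCA1, ABCA3 and ABCG1 were higher. Over all genes with such a match, 22.4% were lower and 19.5% were higher. Without one, 15.6% were lower and 25.7% were higher. Only ABCF1 and ABCB4 held an 8mer there, and ABCF1 was the single ABC gene with more than 2 matches.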

How the data were processed

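RNA of 6 UM-SCC1 cultures (3 transfected with miR-204-5p mimics, 3 with control mimics) was sequenced with Illumina TruSeq libraries. Per the labels, the submitters' processing notes name HISAT2, StringTie and hg38, with versions, annotation and strand setting not given in the sources used here. The authors deposited FPKM per gene and library, computed by them, for 14959 genes, with log2 ratios and p-values of their own, which were not used. No counts could be recovered, so limma 3.58.1 (R 4.3.3; lmFit, eBayes with trend, two-sided) was run on log2(FPKM + 1) over all genes without a filter, with Benjamini-Hochberg adjustment at 0.05, and edgeR, named in the study's methods, was not run. The script was tested on simulated data. P-values measure the spread between the independent experiments. Listed transcripts were compared with GENCODE 29, which holds all 38 and gives 37 of them the same coordinates. Seed matches were sought in its protein-coding transcripts, and the miRNA sequence is from RefSeq (GRCh38.p14). Libraries were grouped by the labels, and none of the 15 pairs of libraries was identical.

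Depth was inferred from FPKM steps at which 27.9% to 31.0% of low values in genes with 1 annotated transcript were whole multiples within 0.02, against 3.06% to 3.28% at other steps. The members and the lists of partners, regulators and markers were chosen with earlier results of these data known. Members past the threshold are named one by one, and of each list the 3 largest increases and decreases past the threshold. The alternatives were the pseudocount lowered to 0.1, only genes with mean FPKM from 1 upward, a block for the replicate number, omission of each library, 3 scalings, no trend, and all 3′UTRs joined. The search of coding sequences was added after the values had been seen. Some members and a marker are not reported here by name and enter the counts and sums only.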

Additional observations from a re-analysis of the deposited data

How the results depend on the processing

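Of the 16 ABC calls, 12 held in every alternative run. The number of ABC genes called was 12 with the replicate block, 15 or 16 under the other settings and 14 to 15 with 1 library left out. Leaving out 1 library gave 9 to 11 partner genes in place of 14 and 1 to 2 regulators in place of 2. Whether same-numbered libraries were run as pairs is not given in the sources used here. Deviations from the group mean correlated at −0.04, −0.02 and −0.11 between same-numbered libraries, which cannot settle this with 3 libraries a group. With the replicate block the calls numbered 5096 genes in place of 6098, 10 partners in place of 14 and 2 lower partners in place of 4, and ABCA3, ABCB10, ABCC5 and ABCD4 did not pass. With sums scaled to be equal, the summed FPKM with miR-204-5p mimics minus control mimics was 1.64 for ABCD, 8.94 for ABCE, −25.0 for ABCF and −9.87 for all ABC rows, with equal medians 1.62, 8.91, −25.0 and −10.1, and with quantile normalization −24.3 for ABCF and −9.16 for all ABC rows. As deposited these differences were 2.48, 9.58, −23.2 and −3.11. The sign of some log2 fold changes that did not pass turned: with 1 library left out, they ranged from −0.11 to 0.027 for ABCA2, −0.028 to 0.0094 for ABCA4, −0.099 to 0.028 for ABCA7, −0.0070 to 0.027 for ABCB4, −0.045 to 0.034 for ABCC1, −0.019 to 0.052 for ABCC10, −0.0021 to 0.063 for ABCC11 and −0.00073 to 0.025 for ABCG8. With equal sums, equal medians and quantiles, ABCC10 was at −0.020, −0.021 and −0.030, and with equal sums and equal medians ABCD3 at −0.018 and −0.020. The causes were not tested. FPKM without counts, 3 libraries a group and listed transcripts of partial length limit these values, above all below 1 FPKM. No scaling moved the median of all genes by over 0.1 on the log2 scale, and ABC genes with a 3′UTR match were 7 with the longest 3′UTR and 9 with all joined.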
